A study of Homo sapiens with 9 samples.

Results

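The genes of BRCA1, of homologous recombination and of the Fanconi pathway were followed over 9 expression arrays of human myeloid leukemia cells. The members were 36 genes chosen by name, and 32 of them had probe sets in the deposited table, 65 probe sets of 27306 in all. BRCA2, RBBP8, FANCA and FANCD2 had none there and were not analysed here. Each gene was read on 1 probe set, the brightest by mean over the 9 arrays among its probe sets that reached a log2 value of 5 on at least 1 array, and all 32 passed this filter, among 10560 genes that did. Of the 65 probe sets, 57 reached the minimum, and 16 of the 32 genes had more than 1 such usable probe set.

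Both cell lines are established, K562 from a myeloid leukemia with erythroid and megakaryocytic potential and HEL from an erythroleukemia. K562 cells gave 6 arrays, of which 2 came from untreated cells, 1 from cells in 25 µM hemin, 1 from cells in 50 µM hemin, 1 from cells in 5 nM PMA and 1 from cells in 100 nM DAC. HEL cells gave 3 arrays, of untreated cells, of cells in 5 nM PMA and of cells in 20 nM DAC. PMA, a phorbol ester that activates protein kinase C and was used as the megakaryocytic inducer, was given for 48 h. DAC (decitabine, an inhibitor of DNA methylation) was given as 3 pulses of 24 h each, and these cells were collected at 144 h, counted from the first pulse. Hemin, an iron porphyrin that served as the erythroid inducer in K562 cells, has no exposure time in the labels. The doses are those of the sample titles, whereas the protocol shared by all samples names 50 and 100 nM DAC and 50 µM hemin, so the 20 nM of the HEL array and the 25 µM hemin are in the titles alone. The labels call 1 of the untreated K562 arrays a replicate without saying that it was a separate culture, so the spread of this pair may be technical. The hemin arrays differ in dose, so the spread of that pair includes any effect of the dose. Every p-value here rests at least in part on the spread within these pairs. In these bulk samples, a loss of expressing cells and a loss of RNA per cell cannot be told apart.

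As background, homologous recombination mends broken DNA by copying the sister chromatid, and is used mainly by cells that are replicating or have replicated their DNA. BRCA1 pairs with BARD1 as a ubiquitin ligase at the break, PALB2 links it to BRCA2, and further proteins of the pathway resect the end and exchange strands with the sister. The Fanconi core complex puts ubiquitin on FANCI and FANCD2 at crosslinked DNA, and many genes of both pathways are transcribed with the cell cycle.

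Values are log2 expression by GCRMA, a method that corrects background from the probe sequence, puts all arrays on a shared distribution and combines the probes of a set. The K562 PMA array stood apart from the other K562 arrays over all probe sets, with correlations of 0.883 to 0.919 where those 5 arrays had 0.956 to 0.986 with each other. Of 8 erythroid markers 7 had a usable probe set, and of these GATA1, KLF1, HBE1, TFRC and EPOR were over the minimum on all 9 arrays, while ALAS2 read 4.21 with PMA in K562 and HBZ 4.38 with PMA in HEL. The erythroid markers also differed between the untreated K562 arrays, with 6 of 7 over 1.5-fold lower in the second (median -1.37), and 5 of 7 were over 1.5-fold higher with DAC in K562 (median 1.71). Their part in the results was not tested. The megakaryocytic integrin ITGB3 read 2.33 to 2.93 on the other K562 arrays and 12.47 with PMA, and PF4 lay at the lowest value of the table on all 6 K562 arrays. With PMA in K562, 4 of 6 usable megakaryocytic markers were over 1.5-fold higher and 0 lower, and 4 of 7 erythroid markers were lower and 2 higher. Of 15 monocyte, lymphocyte and stromal markers, LYZ, CD3D and COL1A1 had a usable probe set. CD3D read 8.51 to 12.51 on the K562 arrays, highest with PMA, and 3.05 to 5.85 on the HEL arrays. LYZ read 6.34 to 8.64 in K562 and 10.20 to 10.41 in HEL, and COL1A1 6.13 to 7.80 on all 9 arrays.

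PMA in K562 cells gave the largest shift of these genes. Of 32 genes, 26 read over 1.5-fold lower with PMA than the average untreated value and 2 read over 1.5-fold higher, where the shares over all 10560 genes were 28.2% lower and 24.9% higher. The median log2 difference was -1.84 over the 32 genes and -0.04 over all genes. In limma, which fits every gene and pools the spread of the untreated pair and the hemin pair, 15 of the 32 genes fell at an adjusted p under 0.05 (Benjamini-Hochberg over all genes) and 0 rose. By this rule 6.96% of all genes fell and 6.39% rose, 13.4% in all. Values under the minimum of 5 have no order, and with each of them set to 5 (a setting chosen after seeing the data) 23 of the 32 genes were over 1.5-fold lower and 2 higher, beside 26.4% and 23% of all genes, with a median of -1.74. FANCB, XRCC3 and FANCM are the genes that drop out. The K562 PMA array was the lowest of the 9 arrays for 25 of the 32 genes, which holds for 22.6% of all genes, and below the 5 other K562 arrays for 28 of them, which holds for 34.6% of all genes.

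**Figure D1:**
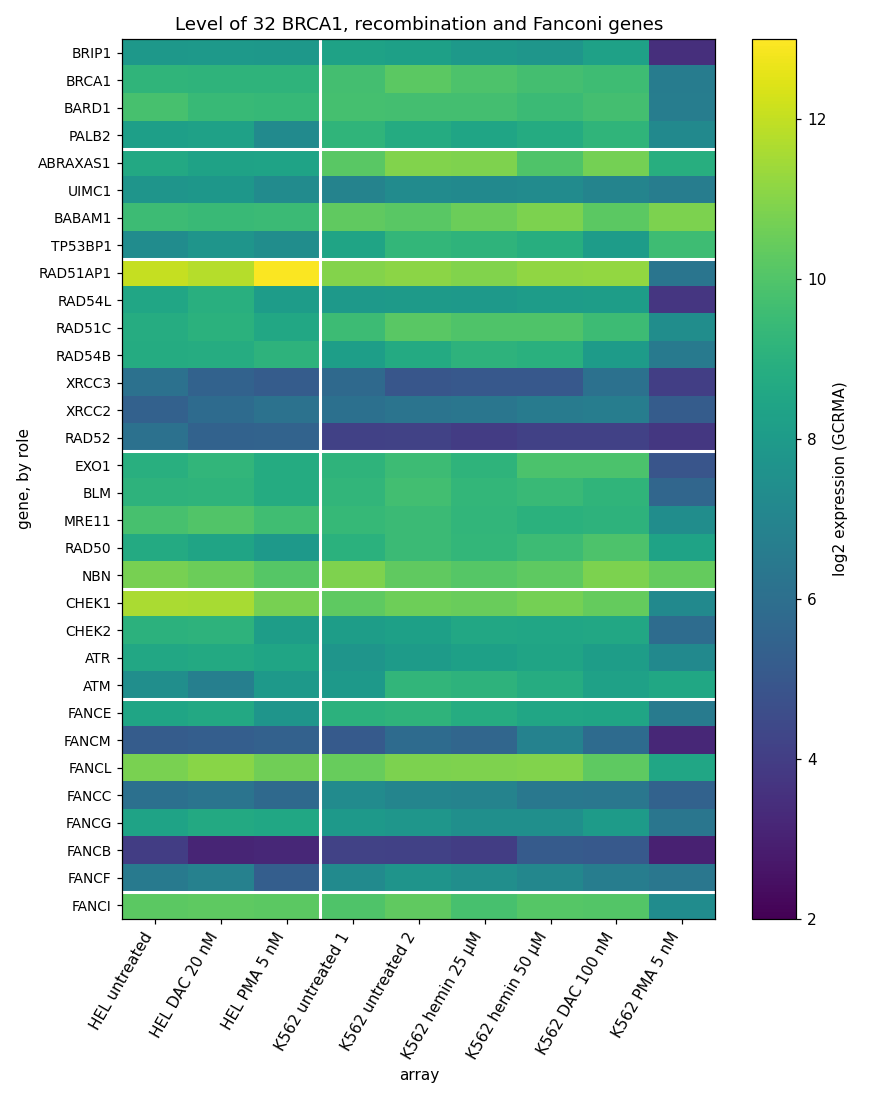
Log2 expression (GCRMA, colour scale) of the 32 genes, grouped by role with white lines between roles, on the 9 arrays. In the right-hand column, K562 cells with 5 nM PMA, 25 of the 32 genes have their lowest value, while the 3 HEL columns, PMA included, stay close to each other for most genes.

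The PMA array has no replicate, and limma took its spread to be that of the untreated pair and the hemin pair. These are called the replicated K562 groups here, although the hemin arrays differ in dose. They left 2 residual degrees of freedom. Leaving out any 1 of the 4 replicated K562 arrays left 1 residual degree of freedom, 0 of the 32 genes past the threshold, and a smallest adjusted p over all genes of 0.0942 to 0.115, while the median stayed between -2.045 and -1.84. The 26 proliferation genes listed beside them (such as MKI67, PCNA and the MCM helicase subunits) moved with these genes: 24 of 26 were over 1.5-fold lower with PMA in K562, 21 fell in limma, and their median difference was -3.10. Their median level was 8.14 on the K562 PMA array and 11.1 to 11.8 on the other K562 arrays. The part of fewer cycling cells in the fall of the repair genes was not tested.

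Of BRCA1 and its direct partners, 4 of 4 measured genes were lower with PMA in K562 and 3 of them fell in limma. BRCA1 read 9.71 and 10.24 in the untreated K562 arrays, 9.91 with 25 µM hemin, 9.73 with 50 µM hemin, 9.60 with DAC and 6.63 with PMA. In HEL cells it read 9.19 untreated, 9.16 with DAC and 9.17 with PMA. The PMA array of K562 thus lay apart from all 8 other arrays, and the HEL values of this probe set lay within 0.03 of each other. The fall in K562 was -3.35 on the log2 scale (SE 0.30, adjusted p = 0.0259, limma), or 10.2-fold, and a second probe set of BRCA1 gave -3.66. In HEL the second probe set read 7.39 untreated, 6.42 with DAC and 6.85 with PMA, a wider spread than the first.

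BARD1, the obligate partner of BRCA1 in its ligase, read 9.76 and 9.73 untreated, 9.69 and 9.50 with the lower and the higher hemin dose, 9.72 with DAC and 6.66 with PMA in K562. Its HEL values were 9.81 untreated, 9.43 with DAC and 9.36 with PMA. It fell by 3.09 on the log2 scale in K562 (SE 0.14, adjusted p = 0.0130, limma), and its other usable probe sets gave -3.76 and -2.52. With PMA in HEL these other probe sets gave -0.69 and 0.26, so the BARD1 probe sets disagree in direction there.

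BRIP1 is a DNA helicase that binds the BRCT repeats of BRCA1 and is itself a Fanconi gene. It read 8.35 and 8.25 untreated, 7.97 and 7.79 with 25 and 50 µM hemin, 8.28 with DAC and 3.47 with PMA in K562, and 7.86, 7.95 and 7.88 in untreated, DAC-treated and PMA-treated HEL cells. The log2 change with PMA in K562 was -4.83 (SE 0.14, adjusted p = 0.0108, limma). Since 3.47 lies under the minimum of 5, the change is safer read as a bound: at least 3.30 on the log2 scale, or at least 9.85-fold lower.

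PALB2, which bridges BRCA1 and BRCA2, was on the brightest probe sets the partner over 1.5-fold lower with PMA in both lines. It read 9.20 and 8.76 untreated and 7.20 with PMA in K562, and 8.21 untreated and 7.25 with PMA in HEL. Its difference in K562 was -1.77 (SE 0.29, adjusted p = 0.0576, limma), which missed the threshold.

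**Figure D2:**
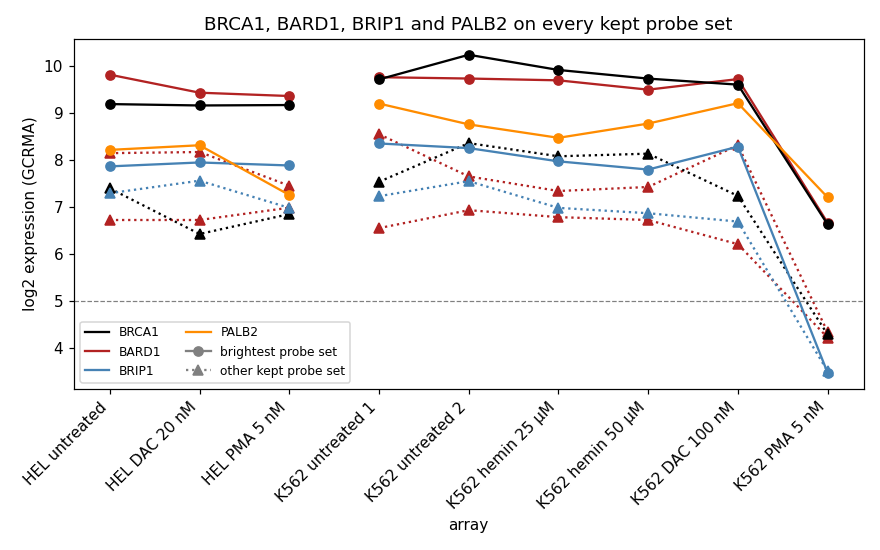
Log2 expression (GCRMA) of BRCA1, BARD1, BRIP1 and PALB2 on the 9 arrays, with circles and solid lines for the brightest probe set of a gene and triangles and dotted lines for its other usable probe sets; the dashed line marks the minimum of 5. Every line drops at the K562 PMA array, to 6.63 for BRCA1 and 3.47 for BRIP1 on their brightest probe sets, and the HEL PMA array shows no such drop for BRCA1 or BRIP1.

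The BRCA1-A complex and 53BP1, which bind chromatin around the break and restrain resection, had no gene past limma. Of 4 genes, 1 was over 1.5-fold lower with PMA in K562 and 2 were over 1.5-fold higher, beside 28.2% and 24.9% of all genes. The median difference was 0.07. As 13.4% of all genes passed limma, the lack of a call among 4 genes does not set this group apart. ABRAXAS1, the scaffold of the complex, read 10.19 and 10.91 untreated, 10.86 and 9.96 with 25 and 50 µM hemin, 10.72 with DAC and 8.91 with PMA in K562, and 8.63, 8.32 and 8.37 in untreated, DAC-treated and PMA-treated HEL cells, a difference with PMA in K562 of -1.64 (SE 0.59, adjusted p = 0.175, limma). TP53BP1, which encodes 53BP1, read 8.44 and 9.29 untreated, 9.15 and 8.90 with hemin, 8.10 with DAC and 9.60 with PMA in K562, and 7.35, 7.73 and 7.40 in HEL. Its PMA array was the highest of K562, and its difference of 0.74 from the untreated mean was smaller than the 0.85 between the untreated arrays. The second usable probe set of TP53BP1 gave -0.05 with PMA in K562, so its higher reading rests on the brightest probe set alone. BABAM1, a subunit that holds the complex together, read 10.32 and 10.20 untreated, 10.54 and 10.82 with hemin, 10.24 with DAC and 10.85 with PMA in K562, just past 1.5-fold with PMA, and 9.54, 9.46 and 9.48 in HEL. UIMC1, which reads ubiquitin chains, had a difference of -0.44.

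Of the 7 strand exchange genes, 3 fell in limma with PMA in K562, and the deposited values of 6 were over 1.5-fold lower, that of XRCC3 by a value under the minimum. RAD51AP1, which stimulates strand pairing, read 10.96 and 11.11 untreated, 10.93 and 11.19 with 25 and 50 µM hemin, 11.23 with DAC and 6.26 with PMA in K562. It read 12.04 untreated, 11.77 with DAC and 12.95 with PMA in HEL, so its PMA array was the lowest of K562 and the highest of HEL. The fall in K562 was -4.77 (SE 0.18, adjusted p = 0.0108, limma), or 27.3-fold.

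RAD54L, a motor protein that remodels chromatin during strand invasion, read 7.91 and 7.99 untreated, 7.94 and 8.07 with hemin, 8.11 with DAC and 3.72 with PMA in K562, against 8.51, 8.92 and 8.07 in untreated, DAC-treated and PMA-treated HEL cells. Its fitted fall of -4.23 (SE 0.12, adjusted p = 0.0108, limma) ended under the minimum of 5, so the bound is at least 7.72-fold lower. RAD51C, which acts in strand exchange and has been assigned to the Fanconi genes, read 9.53 and 10.20 untreated, 9.98 with both hemin doses, 9.52 with DAC and 7.38 with PMA in K562, and 8.80, 9.02 and 8.57 in HEL in the same order of treatments. It fell by 2.49 (SE 0.35, adjusted p = 0.0477, limma), the weakest of the calls, and without the filter on dim probe sets its adjusted p was 0.0582.

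The other strand exchange genes did not pass limma for PMA in K562. RAD54B differed by -1.91, XRCC3 by -1.31 and XRCC2 by -0.93 with PMA in K562. XRCC3 ended at 4.05, under the minimum, so that at least 1.29-fold is the bound for it. RAD52 lay between 3.78 and 4.16 on all 6 K562 arrays, where no difference can be read, and at 6.08 untreated, 5.45 with DAC and 5.51 with PMA in HEL.

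Of the 5 break sensors and resection factors, 4 were over 1.5-fold lower with PMA in K562 and 3 fell in limma. MRE11, RAD50 and NBN form the MRN complex that finds the break, and of these MRE11 passed. MRE11, its nuclease, read 9.37 and 9.50 untreated, 9.25 and 9.03 with hemin, 9.12 with DAC and 7.41 with PMA in K562, and 9.81, 10.01 and 9.63 in untreated, DAC-treated and PMA-treated HEL cells, and it fell by 2.03 in K562 (SE 0.16, adjusted p = 0.0226, limma). RAD50 differed by -0.86 (adjusted p = 0.159, limma) and NBN by -0.19 (adjusted p = 0.712, limma). NBN is uncertain, since its 5 usable probe sets ranged from -0.19 to 0.66 with PMA in K562 and from -0.61 to 0.79 in HEL.

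EXO1 and BLM, the exonuclease and the helicase of long-range resection, fell further. EXO1 read 9.16 and 9.54 untreated, 9.15 and 9.90 with 25 and 50 µM hemin, 9.91 with DAC and 4.92 with PMA in K562, and 8.95, 9.24 and 8.75 in HEL. The fall was -4.43 (SE 0.43, adjusted p = 0.0292, limma) and, against the minimum of 5, at least 20.4-fold. BLM read 9.22 and 9.69 untreated, 9.28 and 9.43 with hemin, 9.22 with DAC and 5.62 with PMA in K562, and 9.11, 9.17 and 8.76 in HEL, a fall of -3.84 in K562 (SE 0.27, adjusted p = 0.0199, limma).

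Among the checkpoint kinases the effector kinases fell and the sensor kinases did not pass. CHEK1, which ATR activates, read 10.26 and 10.58 untreated, 10.48 and 10.71 with hemin, 10.39 with DAC and 7.22 with PMA in K562, and 11.59, 11.56 and 10.76 in untreated, DAC-treated and PMA-treated HEL cells. CHEK2, which ATM activates, read 8.13 and 8.27 untreated, 8.57 and 8.51 with hemin, 8.59 with DAC and 5.88 with PMA in K562, and 9.05, 9.11 and 8.13 in HEL. Both had the PMA array as the lowest of their line in K562 and in HEL. The log2 falls in K562 were -3.20 for CHEK1 (SE 0.22, adjusted p = 0.0190, limma) and -2.32 for CHEK2 (SE 0.13, adjusted p = 0.0153, limma).

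ATR differed by -0.65 (adjusted p = 0.149, limma). ATM read 7.97 and 9.24 untreated, 9.11 and 8.80 with hemin, 8.31 with DAC and 8.54 with PMA in K562, so the untreated arrays alone spanned the other 4 values, and 7.42, 6.75 and 7.97 in untreated, DAC-treated and PMA-treated HEL cells.

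Of the 7 measured genes of the Fanconi core complex, 3 fell in limma with PMA in K562, and the median difference was -1.70. The deposited values of all 7 were over 1.5-fold lower, but for FANCB and FANCM this rests on values under the minimum. FANCL, the ubiquitin ligase of the complex, read 10.46 and 10.84 untreated, 10.88 and 10.90 with hemin, 10.29 with DAC and 8.51 with PMA in K562, and 10.80, 11.05 and 10.62 in HEL, and fell by 2.14 in K562 (SE 0.22, adjusted p = 0.0308, limma). FANCE, which links the core to FANCD2, read 9.08 and 9.16 untreated, 8.82 and 8.52 with 25 and 50 µM hemin, 8.45 with DAC and 6.58 with PMA in K562, and 8.48, 8.63 and 7.75 in HEL. It fell by 2.55 in K562 (SE 0.18, adjusted p = 0.0207, limma). FANCG, a scaffold subunit, read 7.97 and 7.77 untreated, 7.46 with both hemin doses, 8.05 with DAC and 6.34 with PMA in K562, and 8.38, 8.69 and 8.56 in HEL, where PMA lay between the other arrays.

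FANCG fell by 1.53 in K562 (SE 0.14, adjusted p = 0.0268, limma), the smallest of the 15 falls. FANCM, the helicase that anchors the core to DNA, read 5.12 and 5.84 untreated, 5.64 and 6.88 with 25 and 50 µM hemin, 5.85 with DAC and 3.24 with PMA in K562, and 5.21, 5.28 and 5.40 in HEL, which for PMA in K562 allows a bound of at least 1.39-fold. FANCC differed by -1.70 (adjusted p = 0.0655, limma) and FANCF by -1.13 (adjusted p = 0.114, limma), although the second usable probe set of FANCF gave -0.08. FANCB was at 4.18 and 4.11 untreated and 2.99 with PMA, all under the minimum, so its difference has no reading.

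FANCI, the partner of FANCD2 in the clamp that receives the ubiquitin, read 9.96 and 10.33 untreated, 9.82 and 10.11 with hemin, 10.07 with DAC and 7.33 with PMA in K562. Its HEL values of 10.22, 10.28 and 10.21 lay within 0.07 of each other. The fall in K562 was -2.81 (SE 0.26, adjusted p = 0.0276, limma), or 7.01-fold.

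Since these genes moved together with PMA in K562, their promoters were searched for short letters known from cell-cycle promoters, on both strands, in RefSeq windows from 250 bases before to 50 bases after the gene's start (GRCh38.p14). A window was at hand for 29 of the 32 genes, and not for RAD54B, NBN and FANCI. The E2F letters TTCGCGC or TTGGCGC or TTCCCGC or TTGCCGC were in 14 of 29 windows (48.3%), against 13.1% of all 27305 promoters. The 27305 promoters were not limited to genes that passed the filter on dim probe sets, whereas the 29 windows all belong to such genes. The shares among the promoters of genes that passed it were not computed, for these or the other letters. Whether the gap goes with the role of the genes was therefore not tested. The E2F letters were in 9 of the 14 windows of genes past limma with PMA in K562 (64.3%) and in 5 of the 15 others (33.3%). Of those 5, FANCC, FANCF and XRCC2 were also over 1.5-fold lower, and XRCC3 by a value under the minimum. RAD52, the last of them, has no reading in K562. The split is thus by the limma call, not between genes that fell and genes that did not. BRCA1 had no E2F letters. CCAAT, the letters of the NF-Y box, was in 48.3% of the 29 windows and 35.7% of all promoters, and TTTGAA, the core of the cell-cycle homology region, in 10.3% and 15.4%. The 250 bases before the start follow here for 5 genes past limma, picked because they carry E2F letters there. BABAM1 and TP53BP1 follow as the genes over 1.5-fold higher, which did not pass limma and carry no E2F letters. RAD51C, MRE11, CHEK1 and CHEK2, like BRCA1, passed limma without E2F letters and are not shown. With this choice, the sequences cannot show whether the letters go with the fall. Capitals mark E2F letters and CCAAT on either strand (ATTGG is CCAAT reversed), and letters that match are a description, not a binding site.
RAD51AP1 (chr12:4538640-4538889, plus strand, log2 change -4.77): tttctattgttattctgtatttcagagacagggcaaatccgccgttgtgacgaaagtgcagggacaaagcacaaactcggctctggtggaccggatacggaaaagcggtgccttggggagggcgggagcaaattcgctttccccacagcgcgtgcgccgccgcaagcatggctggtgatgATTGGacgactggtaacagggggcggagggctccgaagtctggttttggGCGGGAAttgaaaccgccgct
RAD54L (chr1:46247438-46247687, plus strand, log2 change -4.23): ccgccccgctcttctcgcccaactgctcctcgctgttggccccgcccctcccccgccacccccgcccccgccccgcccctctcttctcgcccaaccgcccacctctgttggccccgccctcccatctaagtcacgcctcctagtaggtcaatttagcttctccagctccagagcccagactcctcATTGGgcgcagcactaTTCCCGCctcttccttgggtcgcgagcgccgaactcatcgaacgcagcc
BLM (chr15:90717096-90717345, plus strand, log2 change -3.84): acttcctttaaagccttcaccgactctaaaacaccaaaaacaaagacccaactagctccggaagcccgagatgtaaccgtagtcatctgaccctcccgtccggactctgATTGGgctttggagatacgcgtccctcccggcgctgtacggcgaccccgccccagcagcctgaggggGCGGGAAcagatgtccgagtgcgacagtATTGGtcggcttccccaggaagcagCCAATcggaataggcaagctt
FANCL (chr2:58241326-58241575, minus strand, log2 change -2.14): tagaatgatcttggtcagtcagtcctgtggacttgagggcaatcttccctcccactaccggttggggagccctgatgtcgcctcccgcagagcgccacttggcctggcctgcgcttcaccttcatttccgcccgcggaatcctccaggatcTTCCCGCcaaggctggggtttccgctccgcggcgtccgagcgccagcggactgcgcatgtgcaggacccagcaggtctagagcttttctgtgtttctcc
FANCG (chr9:35079943-35080192, minus strand, log2 change -1.53): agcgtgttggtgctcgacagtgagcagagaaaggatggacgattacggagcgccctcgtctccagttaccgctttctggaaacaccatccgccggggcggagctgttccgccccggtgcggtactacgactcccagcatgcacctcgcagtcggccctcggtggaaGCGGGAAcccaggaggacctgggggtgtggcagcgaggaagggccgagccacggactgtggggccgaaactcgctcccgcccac
BABAM1 (chr19:17267193-17267442, plus strand, log2 difference 0.59): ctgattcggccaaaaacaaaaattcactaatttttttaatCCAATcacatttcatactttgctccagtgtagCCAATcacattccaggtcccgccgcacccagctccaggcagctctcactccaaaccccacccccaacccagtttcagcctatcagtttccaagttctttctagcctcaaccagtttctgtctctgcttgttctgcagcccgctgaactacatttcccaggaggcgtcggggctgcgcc
TP53BP1 (chr15:43510641-43510890, minus strand, log2 difference 0.74): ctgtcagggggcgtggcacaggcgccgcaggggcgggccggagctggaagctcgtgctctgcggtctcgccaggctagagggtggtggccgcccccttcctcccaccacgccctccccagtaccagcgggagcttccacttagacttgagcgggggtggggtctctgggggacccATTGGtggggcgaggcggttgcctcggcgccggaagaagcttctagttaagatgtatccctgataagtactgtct

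In all 5 E2F-carrying promoters shown, the letters were TTCCCGC or its reverse complement GCGGGAA. They began at positions -21 in RAD51AP1, -49 in RAD54L, -74 in BLM, -84 in FANCG and -99 in FANCL, where -1 is the base just before the start. CCAAT lay upstream of them in RAD51AP1 and RAD54L, and BLM held it 3 times.

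PMA in HEL cells, at the same dose and time, gave smaller differences for most of these genes. With 1 array against 1 there is no test, and 9 of the 32 genes read over 1.5-fold lower where 16.4% of all genes did, and 2 over 1.5-fold higher where 14.6% did. Their median difference was -0.25, beside -0.06 over all genes. FANCF had the widest drop, from 6.53 to 5.30, and its second usable probe set gave -1.35, so both probe sets read lower in HEL. The others were PALB2 at -0.96, CHEK2 at -0.92, XRCC3 at -0.89, CHEK1 at -0.83, RAD50 at -0.77, FANCB at -0.76, FANCE at -0.73 and NBN at -0.61, of which FANCB was under the minimum on both arrays and has no reading. RAD51AP1, at 0.91, and XRCC2, at 0.71, were the genes that read higher.

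Both lines shared 8 genes over 1.5-fold lower with PMA (8.4% of all genes were lower in both). In K562 alone 18 were lower (19.8% of all genes), and in HEL alone NBN (8% of all genes). The shared genes include FANCB, which has no reading, and XRCC3, whose fall in K562 is bounded at only 1.29-fold. Those lower in K562 alone include FANCM, bounded at only 1.39-fold. A gap between lines of this kind needs its own test, and limma gave it as the difference of the PMA response, K562 minus HEL. This difference was over 1.5-fold lower for 22 of the 32 genes and over 1.5-fold higher for 2, beside 26.7% and 25.6% of all genes, with a median of -1.68 over the 32 genes and -0.03 over all. It passed limma for 4 genes, all lower in K562, where 1.2% of all genes passed in that direction and 2.66% in either. RAD51AP1 had -5.69 (SE 0.28, adjusted p = 0.0341, limma), BRIP1 -4.85 (SE 0.22, adjusted p = 0.0341, limma), RAD54L -3.78 (SE 0.19, adjusted p = 0.0341, limma) and BARD1 -2.63 (SE 0.22, adjusted p = 0.0487, limma). BRIP1 and RAD54L ended under the minimum in K562, so for them the difference is better read as a bound, lower by at least 3.32 and at least 2.505 on the log2 scale.

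BRCA1 missed the threshold for this difference at -3.33 (SE 0.45, adjusted p = 0.0842, limma), as did BLM at -3.48 and EXO1 at -4.23 with adjusted p of 0.0712 and 0.0981. An unadjusted p under 0.05 was reached by 17 of the 32 genes and by 2226 of all 10560 genes. Leaving out either untreated K562 array took the 4 calls to 0, with RAD51AP1 then at -5.76 or -5.61. The proliferation genes had the same split between lines: their median difference with PMA was -0.27 in HEL, and 25 of 26 had the K562 response over 1.5-fold below the HEL response, 6 of them past limma.

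**Figure D3:**
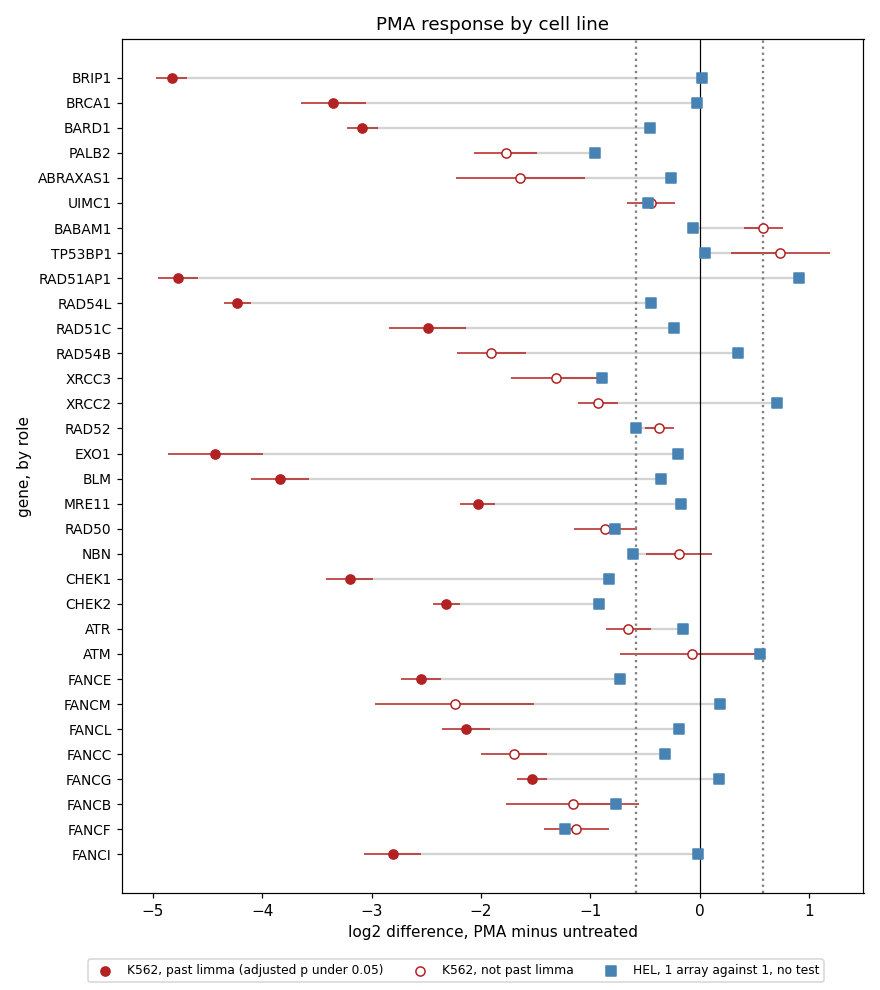
Log2 difference of PMA minus untreated for the 32 genes, by role. Red circles are K562 with their standard errors from limma (filled: adjusted p under 0.05), blue squares are HEL (1 array against 1, no test), grey lines join both values of a gene, and dotted lines mark 1.5-fold; the 15 filled circles all lie left of -1.5, and every HEL square lies between -1.23 and 0.91.

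With the lines treated as replicates of the treatment, so that the spread includes their unlike responses, 24 of the 32 genes were over 1.5-fold lower and 0 higher with PMA (23.2% and 19.7% of all genes), at a median of -1.18. Limma called 0 of them, where 0.473% of all genes fell and 1.97% passed in either direction, and 18 of the 32 genes and 2806 of all genes had an unadjusted p under 0.05. The smallest adjusted p among the 32 genes was 0.0702, for PALB2 at -1.40.

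Other genes of the pathways were taken from a list of 43, of which 39 were measured. With PMA in K562, 24 were over 1.5-fold lower and 2 over 1.5-fold higher, with a median of -0.90, and in limma 11 fell and 2 rose. In HEL, 11 were lower and 5 higher, with a median of -0.12. The 4 genes named by the smallest p over both lines were ERCC1, RMI2, SWI5 and USP1. ERCC1, a subunit of a nuclease that cuts at crosslinks, rose by 3.81 in K562 (SE 0.37, adjusted p = 0.0287, limma), from 10.46 and 9.98 untreated to 14.03 with PMA, and read 1.42 higher in HEL. RMI2, a partner of BLM, fell by 3.13 (SE 0.38, adjusted p = 0.0392, limma) and USP1, which removes ubiquitin from the Fanconi clamp, by 2.68 (SE 0.16, adjusted p = 0.0164, limma), while SWI5, a recombination cofactor, rose by 1.02 (SE 0.15, adjusted p = 0.0488, limma).

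The competing route, end joining, was measured on 9 of 12 genes. With PMA in K562, 4 were over 1.5-fold lower, 0 higher and 0 past limma, with a median of -0.49, and in HEL 0 passed 1.5-fold in either direction. The lists differ in size and level, and their differences from each other were not tested.

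**Figure D4:**
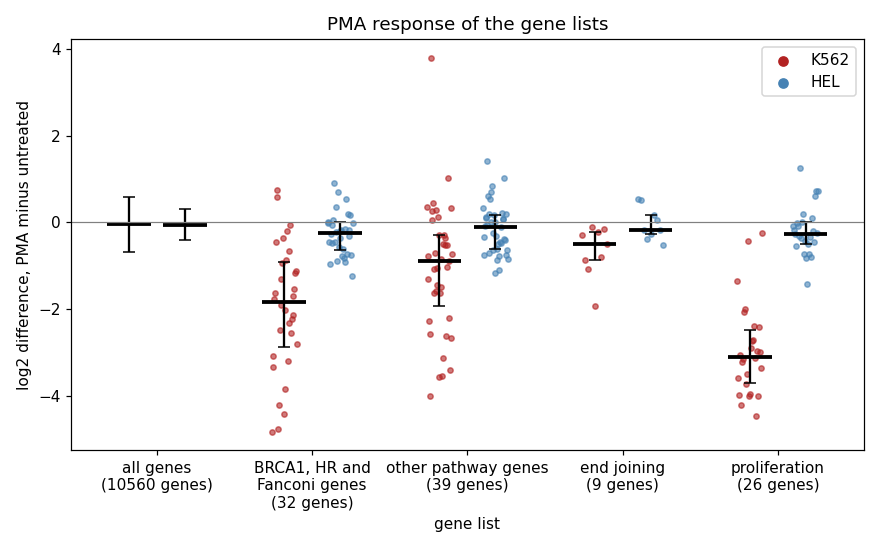
Log2 difference of PMA minus untreated by gene list, red for K562 and blue for HEL, with 1 dot per gene (none drawn for all genes), a black bar at the median and whiskers at the quartiles; HR is homologous recombination. In K562 the medians are -1.84 for the 32 genes, -0.90 for other pathway genes, -0.49 for end joining and -3.10 for proliferation genes, and in HEL they lie between -0.27 and -0.12.

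Hemin left the levels of these genes near those of untreated K562 cells. Over both doses, 0 of the 32 genes were over 1.5-fold lower and 1 higher, FANCM at 0.78 (SE 0.59), where 13.7% of all genes were lower and 8.81% higher, and the median difference was 0.04. In limma 0 of all 10560 genes passed, so none of these did (smallest adjusted p 0.434), with 3 of the 32 genes and 1152 of all genes at an unadjusted p under 0.05. The methods' t-test on the same values had 1 of the 32 genes and 689 of all genes at an unadjusted p under 0.05, and 0 and 1 after Benjamini-Hochberg adjustment. BRCA1 differed by -0.15 (SE 0.24) and BARD1 by -0.15 (SE 0.12). BRIP1 read lower with both doses than in either untreated array, at -0.42 (SE 0.12, adjusted p = 0.454, limma).

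Both hemin arrays were above both untreated arrays for 6 of the 32 genes and below both for 7, beside 21.7% and 22.1% of all genes, and the arrays overlapped for 19. At 25 µM, RAD54B was over 1.5-fold higher, at 0.64, and 0 genes were lower (7.5% and 9.41% of all genes). At 50 µM, FANCM at 1.40 and FANCB at 1.02 were higher, although FANCB was under the minimum untreated and kept through this array and the DAC array alone, and FANCC at -0.76, FANCE at -0.60 and ABRAXAS1 at -0.59 were lower (14.4% and 20% of all genes). The untreated arrays alone were over 1.5-fold apart for 6 of the 32 genes, 23.5% of all genes being so, and the second lay above the first by a median of 0.25.

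DAC gave no call among these genes. In K562, 4 of 32 were over 1.5-fold lower and 3 higher, where 16.8% and 14.3% of all genes were, and 0 of the 10560 genes passed limma, with 1 of the 32 genes and 1183 of all genes at an unadjusted p under 0.05. Of the 7 measured genes of the Fanconi core complex, 3 were among the lower ones and 1 among the higher. FANCC went from 7.30 and 7.02 to 6.36, and FANCF from 7.27 and 7.69 to 6.68. FANCE went from 9.08 and 9.16 to 8.45 (SE 0.18, adjusted p = 0.429, limma). The fourth was TP53BP1 at -0.76, although its second usable probe set gave -0.20. The higher ones were FANCB at 0.91, XRCC3 at 0.72 and RAD50 at 0.68. For FANCB, whose untreated values were under the minimum, the difference was 0.058 with values under 5 set to 5. The second usable probe set of FANCF went the other way, at 0.50.

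In HEL, FANCB at -0.83, ATM at -0.67, XRCC3 at -0.66 and RAD52 at -0.63 read over 1.5-fold lower with DAC and 0 genes higher, beside 6.46% and 4.72% of all genes. Both values of FANCB were under the minimum, so its difference has no reading. The doses differ between the lines (100 and 20 nM), and over both lines 0 of the 32 genes passed 1.5-fold in either direction, beside 10.1% of all genes lower and 7.65% higher, with a median of -0.15. The difference of the DAC response between lines passed limma for 0 genes, with 0 of the 32 genes and 738 of all genes at an unadjusted p under 0.05. BRCA1 differed by -0.37 (SE 0.30) in K562 and by -0.03 in HEL. Its second usable probe set gave -0.71 in K562 and -0.97 in HEL, both over 1.5-fold lower, so its probe sets disagree on the size of the difference with DAC.

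**Figure D5:**
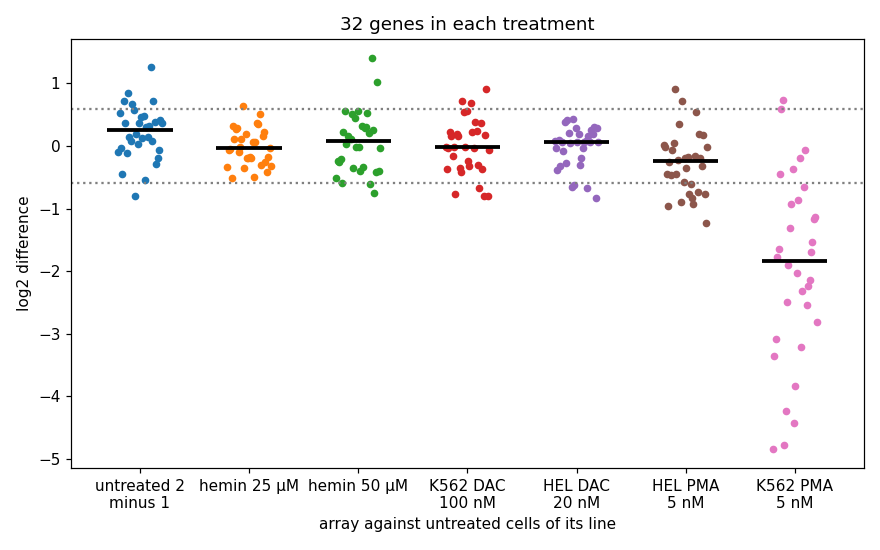
Log2 difference from untreated cells of the same line for the 32 genes, 1 dot per gene, with a black bar at the median and dotted lines at 1.5-fold; the first column is the second untreated K562 array minus the first. Medians are 0.25 between the untreated arrays, -0.04 and 0.07 with 25 and 50 µM hemin, -0.02 and 0.06 with DAC in K562 and HEL, -0.25 with PMA in HEL and -1.84 with PMA in K562.

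Between the untreated lines, 11 of the 32 genes were over 1.5-fold higher in K562 than in HEL and 7 lower, beside 30.9% and 25.1% of all genes, with a median of 0.22. Limma called 2 of them, both lower in K562, where 10.7% of all genes were called lower and 9.57% higher, 20.2% in all. RAD52, a DNA-annealing protein that backs up BRCA2, read 4.13 and 4.16 in K562 and 6.08 in HEL, a difference of -1.94 (SE 0.13, adjusted p = 0.00951, limma) and, against the minimum of 5, at least 2.12-fold. RAD52 was kept through its HEL arrays alone, so it had to read lower in K562, and its call is given as a description. CHEK2 read 8.13 and 8.27 in K562 and 9.05 in HEL, a difference of -0.85 (SE 0.13, adjusted p = 0.0400, limma), and without either untreated array neither gene passed.

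The largest gaps in the other direction were ABRAXAS1, 10.19 and 10.91 in K562 and 8.63 in HEL, and TP53BP1, 8.44 and 9.29 in K562 and 7.35 in HEL. Neither passed limma (adjusted p of 0.125 and 0.120), and for both genes the untreated K562 arrays were themselves over 1.5-fold apart. The second usable probe set of TP53BP1 read 5.66 and 5.47 in untreated K562 and 5.47 in untreated HEL. BRCA1 was 0.79 higher in K562 (SE 0.30, adjusted p = 0.172, limma).

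NBN, BABAM1, TP53BP1 and ATM were the genes whose K562 PMA value did not lie below all other K562 arrays. On all 57 usable probe sets, 39 were over 1.5-fold lower and 3 higher with PMA in K562, and no gene had probe sets past 1.5-fold in both directions. In HEL, 17 were lower and 4 higher with PMA, and NBN had both. The shares over all usable probe sets were not computed, and probe sets of the same gene are not separate readings. These counts are therefore a description alone.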

How the data were processed

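Expression was measured on 9 Affymetrix arrays. The authors deposited log2 values made by GCRMA, per the submitters' processing notes, whose version, settings and choice of probe sets are not given in the sources used here. The table holds 27306 probe sets, of which 22858 have 1 gene in the platform annotation, 1164 have several and 3284 were not named. Array medians lay between 6.67 and 6.78, and the number of arrays limits the precision.

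A probe set was kept if it named 1 gene and reached log2 5 on any array, and the brightest by mean stood for its gene. Limma 3.58.1 (R 4.3.3) was fitted to 7 groups with 2 residual degrees of freedom, the hemin doses being pooled. A second model with cell line and treatment as additive terms had 4. P-values were adjusted by Benjamini-Hochberg over 10560 genes at a threshold of 0.05. HEL treatments are single arrays and were not tested. The study's statistics section names general tests and none for these re-used arrays, and the 1.5-fold limit is from its results. Its general test was run for hemin. Values on every array are given for BRCA1, for members past limma and for the members with the widest range in a role. Doses were taken from sample titles, which differ in part from the shared protocol. The scripts were tested on simulated data with changes planted on the K562 PMA array alone. Of changes of 1, 2 and 4 on the log2 scale, the test of PMA in K562 found 0%, 0.742% and 44.2%. The test of the difference of the PMA response and the test over both lines found 0% at each size. The test of PMA in K562 also called 45 unchanged genes over 20 simulated sets. Each set had fewer changed genes than the 1410 that passed for PMA in K562 in the data. With fewer changed genes the adjustment is stricter, so these rates do not carry over to the data, where the difference passed for 281 genes. A gene that missed these thresholds may still have changed.

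The member genes, gene lists and tests were chosen with earlier results of these data known. Promoters came from RefSeq (GRCh38.p14).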

Additional observations from a re-analysis of the deposited data

Results flagged for a closer look

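For 4 genes the PMA response in K562 differed from that in HEL by the test of the difference itself (limma, adjusted p under 0.05). On the log2 scale, K562 minus HEL, the difference was -5.685 for RAD51AP1, -4.851 for BRIP1, -3.784 for RAD54L and -2.631 for BARD1. BRIP1 and RAD54L lay under the minimum of 5 on the K562 PMA array, so that lower by at least 3.32 and at least 2.505 is what the values allow for them. The PMA value is 1 array in each line.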

How the results depend on the processing

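No paired analysis was possible because the labels give the groups no shared replicate numbers. Other settings were quantile normalization, centring on array medians, other filters, the mean of a gene's probe sets and an intensity trend. Over these, 14 to 18 of the 32 genes passed limma for PMA in K562 and 3 to 6 for the difference between lines. The stricter minimum of 6 left 31 of the genes. Of all genes, 1373 to 2016 passed for PMA in K562 and 156 to 696 for the difference, among 9959 to 12078 tested. Without any 1 replicated K562 array 0 passed for PMA in K562, and without either untreated array 0 passed for the difference between lines and 0 for untreated K562 against HEL; these fits have fewer arrays and fewer residual degrees of freedom. Leaving out single arrays, the PMA median in K562 ranged from -2.045 to -1.84, and the genes over 1.5-fold higher with PMA in K562 from 1 to 2. The genes over 1.5-fold lower ranged from 0 to 3 with hemin, from 3 to 8 with DAC in K562, from 0 to 1 with DAC over both lines, and from 4 to 8 for the difference of the DAC response. Those over 1.5-fold higher ranged from 0 to 5 with hemin, from 2 to 5 with DAC in K562, from 0 to 1 with PMA over both lines and from 5 to 7 for the difference of the DAC response. For hemin, 2 were higher under quantile normalization, 2 under centring, and at 50 µM alone 2 were higher and 3 lower. With the mean of a gene's probe sets, 1 was higher with PMA in K562, 1 lower with DAC in HEL, 1 lower with DAC over both lines and 2 higher for the difference of the DAC response. The difference of the PMA response of ATM was -1.25 without untreated replicate 1 and 0.0165 without replicate 2. The cause of these moves was not tested, and the shares of all genes over 1.5-fold were not computed in every setting. Over all genes, the calls for DAC in K562 went from 0 to at most 47 (intensity trend), those for the difference of the PMA response from 281 to 156 (minimum of 6) or 696 (no filter), and those for the difference of the DAC response from 0 to 201 (intensity trend). Without an untreated array, 1410 calls for PMA in K562 went to 0, 281 for the difference of the PMA response to 0, 2136 for K562 against HEL to 665 or 669, and 208 for PMA over both lines to 1 or 16. With values under 5 set to 5, chosen after seeing the data and not tested, 23 of the 32 genes were over 1.5-fold lower with PMA in K562.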
